A study of Mus musculus with 14 samples.

Results

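Voltage-gated sodium and calcium channels and the potassium channels were followed across stem cell cultures and spinal tissue of the mouse. The set was defined by gene symbol alone, as the genes named Scn followed by a number and a or b, the genes whose names begin with Cacna, and the genes named Kcn followed by a letter code and a number. It held 119 genes at 120 loci, because *Kcnh8* was listed at 2 loci, out of 23107 loci that could be followed across all tables. Of these, 101 loci (100 genes) exceeded 1 FPKM somewhere among the libraries, against 15967 of all loci, and they are described here; an FPKM is a count of sequenced fragments per kilobase of transcript and per unit of library size. The remaining 19 loci stayed at or under 1 FPKM everywhere. The lowest maximum among the described loci was 1.25 FPKM (*Kcnt2*), and the highest among the others was 0.891 FPKM (*Kcnv1*). The sodium channel gene *Scn9a* was not analysed here.

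The RNA-seq data were 11 poly-A libraries of C57BL/6 background. The 4 libraries labelled WT in culture came from the JM8 clone and were ES cells and embryoid bodies (EBs, floating aggregates in which ES cells differentiate) at days 2, 4 and 6, and the 4 labelled KO were the same stages of the Taf9b_BG10 clone, given as TAF9B -/-. TAF9B is a TBP-associated factor, a class of proteins that work at core promoters, and the KO allele carries LacZ-Neo instead of the coding sequence of this X-linked gene. The EBs were driven towards motor neurons with retinoic acid and a smoothened agonist, and each genotype was 1 clone. ES cells of both genotypes were grown on feeder layers of embryonic fibroblasts. The part of feeder RNA in the ES cell values was not tested. Newborn spinal column, which holds bone, muscle and ganglia besides the cord, was sequenced from 1 WT-labelled and 1 KO-labelled sample, and newborn spinal cord from 1 WT-labelled sample; how many animals went into each was not given in the sources used here. ChIP-seq peak lists for TAF9B and RNA POL2 came from EB motor neuron cultures of a WT clone, HBG3, grown beyond day 6. Every condition had 1 library, so no difference below has a replicate check or a p-value, and "higher" or "lower" compares those libraries only.

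Voltage-gated sodium channels carry the upstroke of the action potential, and consist of a pore-forming alpha subunit with beta subunits that tune its gating and its placement in the membrane. Voltage-gated calcium channels turn depolarization into calcium entry for transmitter release, for muscle contraction and for signalling to the nucleus, with alpha2delta subunits that bring the pore to the surface. Potassium channels return the membrane to rest, and include voltage-gated (Kv), inwardly rectifying (Kir), two-pore (K2P) background channels and channels gated by intracellular calcium or sodium. Many of these genes mark mature neurons, while others serve muscle, glia and epithelia.

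*Taf9b* itself was at 0.537, 0.516, 1.96 and 1.37 FPKM in the WT-labelled cultures (ES cells, then days 2, 4 and 6) and at 3.06, 4.08, 4.27 and 4.01 FPKM in the KO-labelled ones. It was at 6.65 FPKM in spinal column labelled WT, 3.31 FPKM in that labelled KO and 7.44 FPKM in spinal cord. The *Taf9b* values of the cultures thus ran against their labels and those of the tissue did not, although the FPKM of a locus does not tell which of its exons gave the reads; libraries are therefore named by their labels throughout. Markers of neurons summed to 1054 FPKM in day 6 EBs labelled WT and to 137 FPKM in those labelled KO. Of these, 10 of 10 genes were more than 2-fold lower, but *Slc17a6* was near 0 under either label (0.0108 FPKM and listed at 0). In the same pair 5 motor neuron markers summed to 73.4 and 2.99 FPKM, with *Chat* listed at 0 in the latter. Over the same pair, 4 ES cell markers summed to 293 and 823 FPKM and 4 markers of simple epithelia to 172 and 1095 FPKM. In spinal column, neuron markers summed to 1124 FPKM (WT label) and 620 FPKM (KO label), and 6 sensory ganglion markers to 299.5 and 159 FPKM, while 5 epidermis genes (keratins and loricrin) summed to 10.97 and 834 FPKM. In bulk tissue, fewer cells of a type and less RNA per cell cannot be told apart. The neuron markers were thus lower with the KO label both at day 6 and in spinal column. The part of these differences in the channel results was not tested.

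Few of the channel genes were on in culture, and most were on in spinal tissue. Between 16 and 26 of the 120 loci were above 1 FPKM in the 8 culture libraries, 82 in spinal column labelled WT, 65 in that labelled KO and 81 in spinal cord. The same threshold was passed by 51.4% of all loci in ES cells labelled WT and by 56.6% in spinal cord, against 15.8% and 67.5% of the channel loci. The channel loci took 0.0158% of the FPKM summed over all loci in ES cells labelled WT, 0.0157% in day 6 EBs labelled WT, 0.103% in spinal column labelled WT, 0.0473% in that labelled KO and 0.185% in spinal cord. Among the WT-labelled libraries, 62 of the 101 described loci had their highest value in spinal cord, beside 23.5% of all 15967 loci above 1 FPKM, 29 in spinal column, beside 17.7%, and 10 in a culture, beside 58.7%. Each stage and tissue was normalized in a table of its own, so levels set side by side across stages rest on the scaling of each table.

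**Figure D1:**
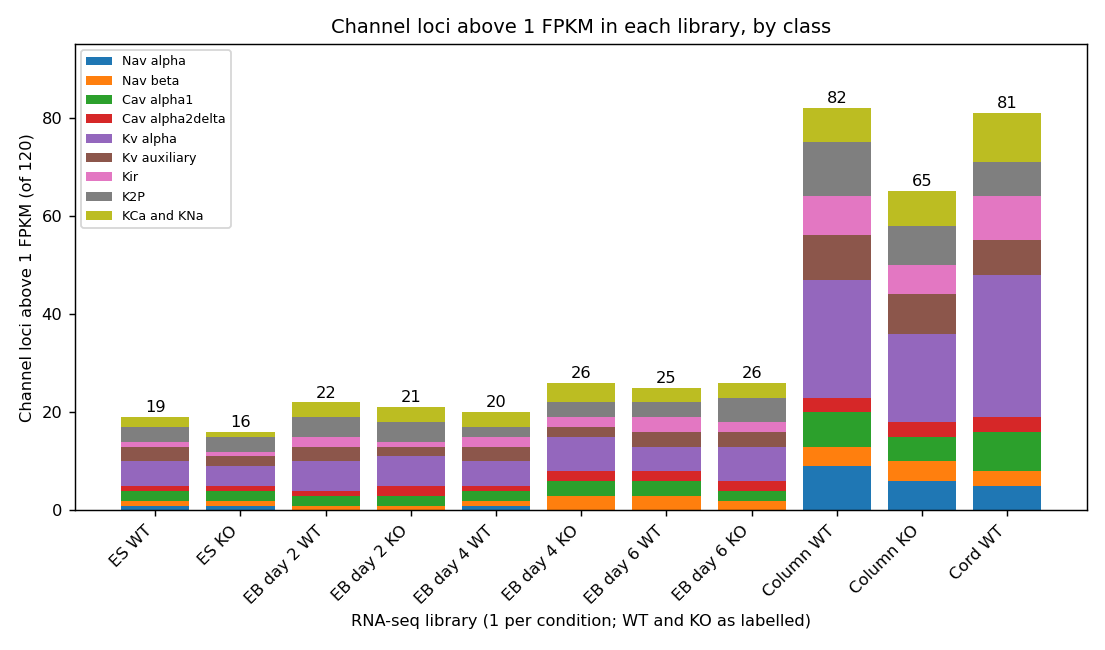
Stacked bars give the number of the 120 channel loci above 1 FPKM in each of the 11 RNA-seq libraries, with the total above each bar and colours for the classes of subunit. Totals run from 16 to 26 in the cultures and from 65 to 82 in the tissue libraries.

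Spinal cord and ES cells, compared in 1 table, differed at most channel loci. Of 86 loci above 1 FPKM in one or the other, 76 were more than 2-fold higher in spinal cord, where 30.5% of all loci were, and 6 were more than 2-fold lower, where 35.7% of all loci were. The median log2 ratio was 4.17 over the channel loci and -0.26 over all 14336 loci. All 5 sodium channel alpha subunits, 8 calcium channel pore subunits and 7 Kv auxiliary subunits that could be compared were among the higher ones. The 6 lower loci were *Kcnj4*, *Kcnk5*, *Kcnh3*, *Kcnk1*, *Kcns3* and *Kcnk6*, of which 3 encode two-pore channels. With 1 FPKM added to both values 73 of the 86 were higher and 3 lower, beside 26.9% and 32.2% of all loci. With more than 1 FPKM demanded in both libraries, 16 loci could be compared, and 12 were higher and 1 lower, beside 19.4% and 36.6%.

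Day 6 EBs labelled WT differed less from ES cells. Of 30 channel loci, 11 were more than 2-fold higher, beside 23.2% of all loci, and 6 more than 2-fold lower, beside 15.1%. These values come from separately normalized tables, and the median log2 ratio over all loci was 0.20 (channel loci, 0.31); with the ratios centred on it, the split of all loci went from 3013 higher and 1959 lower to 2421 and 2417, and the channel counts did not move. The highest ratios were those of *Kcnmb4*, *Kcnj11*, *Kcnn1*, *Kcnh2* and *Kcnip3*, and the lowest those of *Kcnk1*, *Scn3a*, *Kcnh3*, *Kcns3* and *Cacna1a*. They ran from 26.0-fold higher for *Kcnmb4* to 4.73-fold lower for *Kcnk1*. With a demand for more than 1 FPKM in both libraries, 2 of 14 loci were left on each side, beside 17.8% of all loci higher and 12.3% lower.

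Libraries labelled KO and WT were close in ES cells and at day 2. None of 19 channel loci differed by more than 2-fold in ES cells, beside 0.541% of all loci higher and 0.591% lower. At day 2, 1 of 24 (*Kcnk12*, at 1.10 and 2.33 FPKM with the WT and KO label) was higher, beside 1.19% of all loci, and 1 (*Kcnj3*) was lower, beside 1.37%. At day 4, 10 of 28 channel loci were more than 2-fold higher with the KO label and 0 more than 2-fold lower, where 12.1% and 4.41% of all loci were. With 1 FPKM added to both values 4 of the 28 were higher past 2-fold, beside 7.54% of all loci, and with more than 1 FPKM demanded in both libraries 3 of 18, beside 7.55%. Their median log2 ratio at day 4 was 0.70, against -0.03 for all loci. In the same pair the 4 ES cell markers summed to 26.2 FPKM (WT label) and 167 FPKM (KO label) and the 4 markers of simple epithelia to 93.8 and 419 FPKM. Of the 6 sensory ganglion markers, *Prph* was at 15.3 and 104 FPKM and *Pou4f1*, the other way, at 1.84 and 1.07 FPKM, with a median log2 ratio of 0.90 over the list. The part of these markers in the channel counts was not tested. At day 6, 10 of 32 were higher (10.5% of all loci) and 6 lower (9.91% of all loci). With 1 FPKM added to both values, 2 were higher past 2-fold, beside 6.34% of all loci, and 5 lower, beside 7% of all loci.

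In spinal column, 34 of 83 channel loci were more than 2-fold lower with the KO label, beside 8.51% of all loci, and 1 was more than 2-fold higher, beside 9.08%. Below 0 on the log2 scale were 71 of the 83, with a median of -0.86, against 0.06 over all 14187 loci. With 1 FPKM added to both values 16 were lower past 2-fold, beside 3.98% of all loci. The neuron markers had a median log2 ratio of -1.09 in the same pair.

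**Figure D2:**
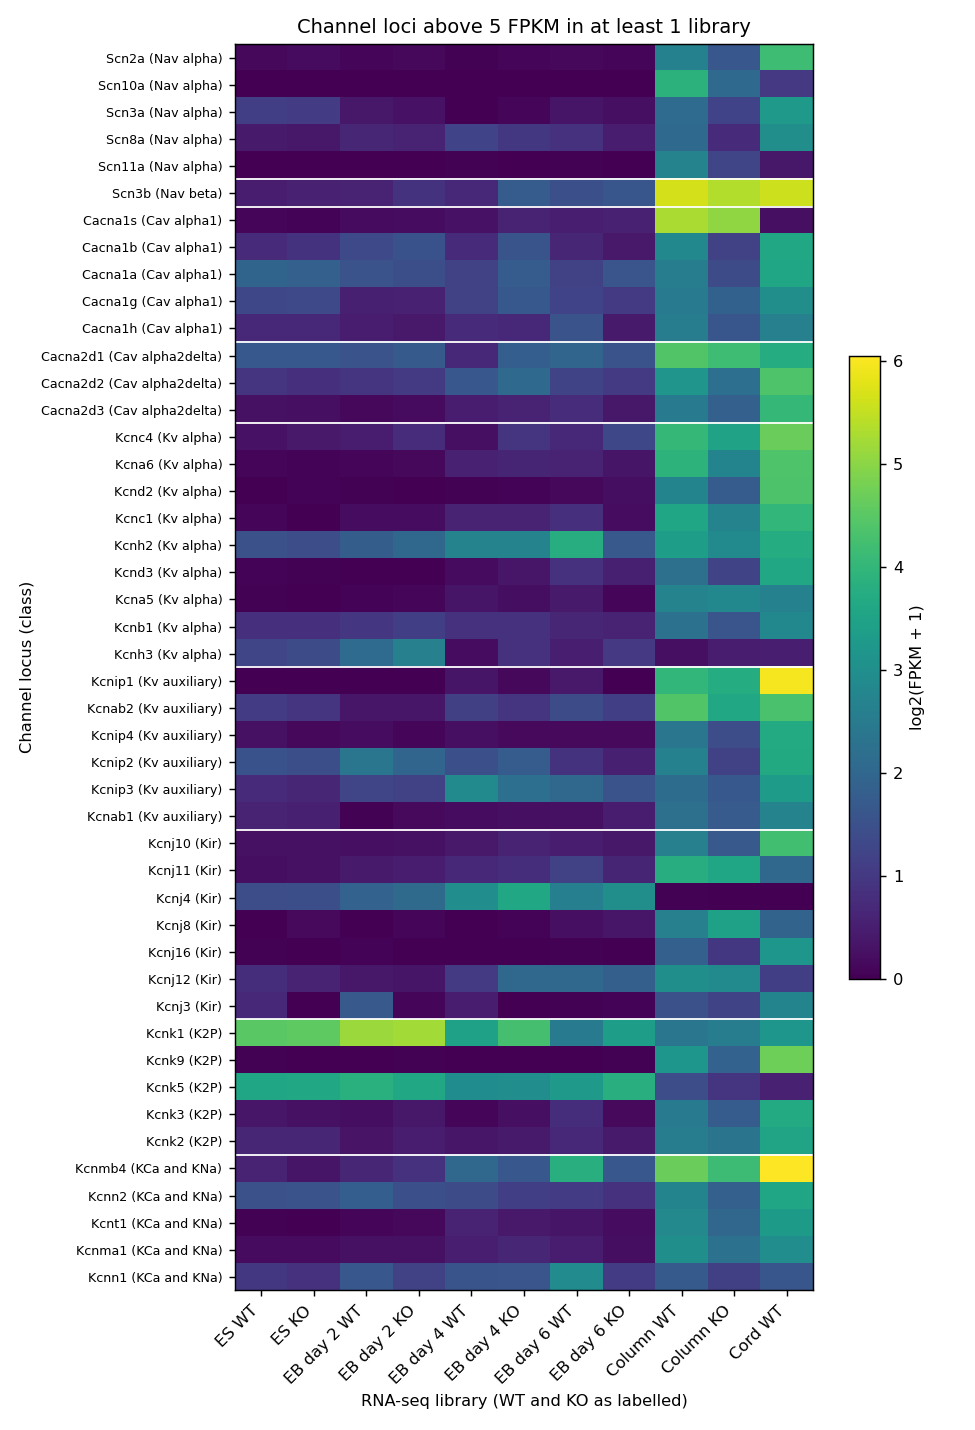
Each row is a channel locus that exceeded 5 FPKM in at least 1 library (46 loci shown), grouped by class, and each column an RNA-seq library; colour gives log2(FPKM + 1). Most rows are dark in the 8 culture columns and bright in spinal column and cord, and the exceptions include Kcnk1, Kcnk5 and Kcnj4.

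The alpha subunits of sodium channels were almost silent in culture. The highest value of any of the 9 in a culture library was 1.33 FPKM (*Scn8a*, day 4, WT label). *Scn2a*, a channel of developing axons, was highest in spinal cord, at 17.2 FPKM, against 5.34 FPKM in spinal column labelled WT and 2.11 FPKM in that labelled KO. *Scn3a*, an embryonic isoform, was at 8.63 FPKM in spinal cord and *Scn8a*, the main channel of adult nodes of Ranvier, at 7.02 FPKM. In spinal column *Scn8a* was 4.90-fold lower with the KO label, at 0.647 FPKM against 3.17 FPKM. *Scn3a* was also the only alpha subunit above 1 FPKM in ES cells, at 1.19 FPKM (WT label) and 1.06 FPKM (KO label). It was at 0.272 FPKM in day 6 EBs labelled WT. The 6 cartilage and bone markers, with *Col1a1* at 158 FPKM, summed to 163 FPKM in ES cells labelled WT and 13.6 FPKM at day 2. Whether feeder cells gave part of the *Scn3a* value was not tested.

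The isoforms of sensory neurons and muscle showed up in spinal column. *Scn10a*, which encodes the tetrodotoxin-resistant channel of nociceptors, was at 13.9 FPKM in spinal column labelled WT, at 3.20 FPKM in that labelled KO and at 1.002 FPKM in spinal cord. *Scn11a*, another nociceptor channel, was at 5.51, 1.41 and 0.308 FPKM in the same order. *Scn7a*, a sodium-sensing relative of the family, was at 4.52, 0.982 and 0.696 FPKM. These 3 genes were thus 4.36-fold, 3.92-fold and 4.60-fold lower with the KO label, and all were lower in the cord than in either column library. *Scn4a*, the channel of skeletal muscle, was at 4.76 FPKM (WT label) and 3.88 FPKM (KO label) in spinal column and at 0.0175 FPKM in spinal cord. It was the 1 alpha subunit of 9 that differed by less than 2-fold between the column libraries; the median log2 ratio of the class was -1.34. Over the same pair the 7 muscle markers used summed to 6853 and 5578 FPKM and did not move one way. *Myog* was at 92.8 and 116 FPKM and *Tnnt3* at 2927 and 4489 FPKM, while *Myh3* was at 420.5 and 218 FPKM and *Ttn* at 4.80 and 2.27 FPKM. *Ckm* was at 3407 FPKM and listed at 0, *Myh8* was listed at 0 and at 753 FPKM, and *Acta1* was listed at 0 in both.

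Among the beta subunits, *Scn3b*, a beta subunit of immature and sensory neurons, was at most 2.38 FPKM in the cultures and at 49.6, 39.9 and 47.2 FPKM in the 3 tissue libraries. At day 4 it was at 0.602 FPKM (WT label) and 2.38 FPKM (KO label), and *Scn2b* at 0.659 and 1.44 FPKM. Both were thus more than 2-fold higher with the KO label. With 1 FPKM added to both values *Scn3b* stayed past 2-fold and *Scn2b*, at a log2 ratio of 0.56, did not. In spinal column *Scn2b* went the other way, at 4.19 and 1.75 FPKM, while *Scn3b* stayed within 2-fold.

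Calcium channel pore subunits separated into a neuronal group and a muscle gene. *Cacna1b* (N-type) and *Cacna1a* (P/Q-type), which trigger transmitter release, stood at 11.3 and 11.03 FPKM in spinal cord. *Cacna1b* was at 6.10 FPKM in spinal column labelled WT and 1.24 FPKM in that labelled KO, 4.94-fold lower. *Cacna1e* (R-type) was at 1.28 and 0.174 FPKM and *Cacna1c* (L-type) at 1.76 and 0.372 FPKM, so both were among the 6 lowest ratios in that pair. *Cacna1s*, the voltage sensor of skeletal muscle, was at 37.7 and 32.3 FPKM in spinal column and at 0.197 FPKM in spinal cord. Of 7 pore subunits that could be compared in spinal column, 5 were more than 2-fold lower with the KO label, beside 8.51% of all loci.

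In culture, *Cacna1h*, a low-threshold T-type channel, was at 0.631 FPKM in ES cells labelled WT and 1.94 FPKM in day 6 EBs labelled WT, and at 0.613 and 0.353 FPKM in the same stages labelled KO. It was 5.51-fold lower with the KO label at day 6. *Cacna1b* was at 0.677 FPKM (WT label) and 1.97 FPKM (KO label) at day 4, the opposite order to that in spinal column. *Cacna1a* was highest in ES cells among the cultures, at 2.86 FPKM (WT label). Among the alpha2delta subunits, some of which bind gabapentin, *Cacna2d1* was at 0.633 and 2.49 FPKM at day 4 (WT, KO label) and at 2.90 and 1.92 FPKM at day 6. In spinal column it was at 20.3 and 17.2 FPKM, while *Cacna2d2* was at 7.95 and 3.64 FPKM, 2.18-fold lower with the KO label.

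**Figure D3:**
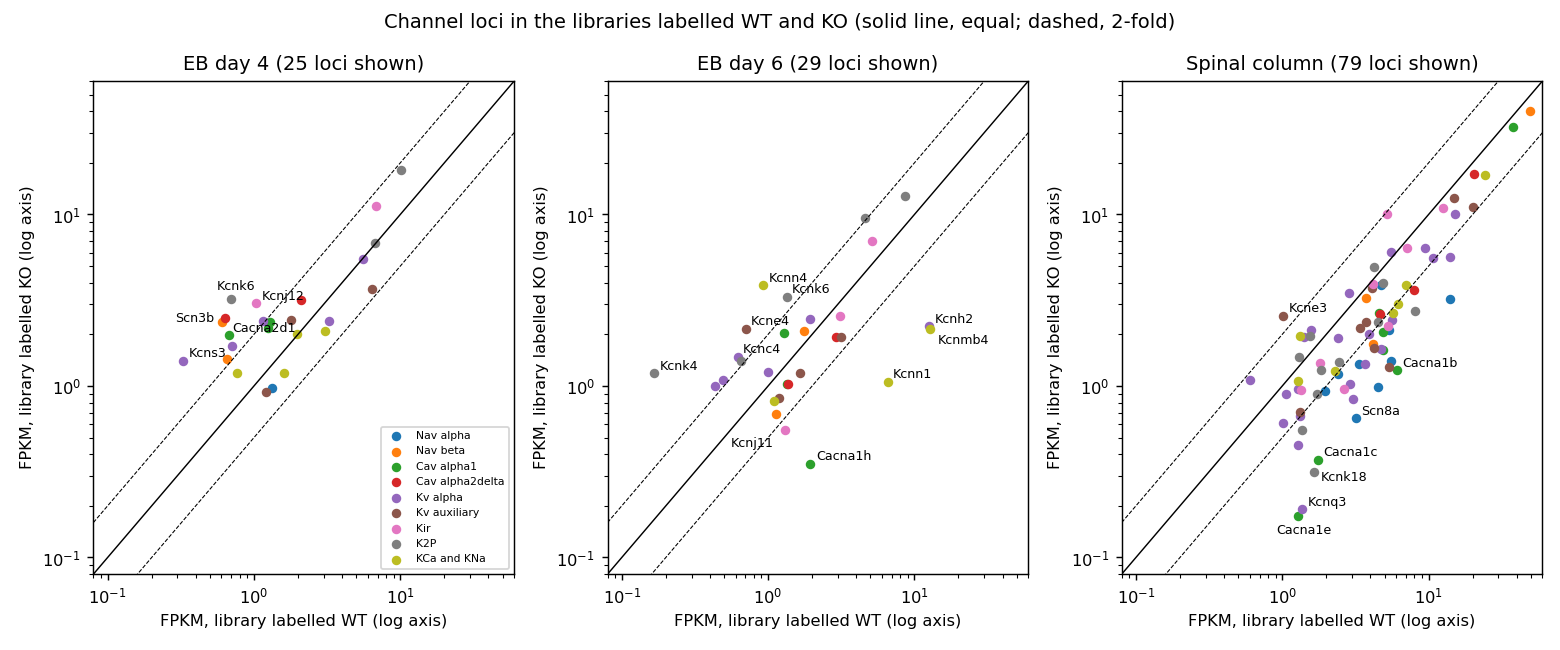
FPKM with the WT label (x axis, log scale) is plotted against FPKM with the KO label (y axis, log scale) for the channel loci above 1 FPKM under either label in day 4 EBs (25 loci shown), day 6 EBs (29) and spinal column (79), coloured by class, with the 5 highest and the 6 lowest ratios past 2-fold named. At day 4 the 9 points outside the dashed 2-fold lines lie above them, at day 6 there are 9 above and 5 below, and in spinal column 1 above and 32 below.

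Kv channel alpha subunits were the largest class, with 41 loci, of which 35 were described. In spinal cord the highest was *Kcnc4*, at 24.7 FPKM, and *Kcna6* was at 19.8 FPKM. *Kcnd2*, an A-type channel of dendrites, was at 0.0144 FPKM in ES cells labelled WT in the table shared with cord and at 19.7 FPKM in cord; a fold against a value so near 0 is not given.

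*Kcnh2*, which encodes the ERG channel known for cardiac repolarization and also found in neurons, was the Kv gene that stood out in culture. It was at 1.85, 2.45, 5.58 and 12.6 FPKM in the WT-labelled cultures from ES cells to day 6, and at 1.72, 3.07, 5.53 and 2.23 FPKM in the KO-labelled ones. The libraries were alike up to day 4 and 5.66-fold apart at day 6. In tissue it was at 9.45 FPKM (column, WT label), 6.34 FPKM (column, KO label) and 12.5 FPKM (cord), so the day 6 value with the WT label was at the level of cord, in a table normalized apart from it. *Kcnh3*, *Kcns3* and *Kcnc4* were higher with the KO label at day 6 by 2.32-fold, 2.20-fold and 2.39-fold. All were under 1 FPKM with the WT label, and none stayed past 2-fold with 1 FPKM added to both values. *Kcns3* had been at 0.329 and 1.40 FPKM at day 4.

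In spinal column, 10 of 25 Kv alpha loci were more than 2-fold lower with the KO label, beside 8.51% of all loci, and 5 had a ratio above 0 on the log2 scale. *Kcnq3*, a subunit of the M-current that limits repetitive firing, was at 1.37 and 0.191 FPKM, and *Kcna2*, an axonal channel beside the nodes, at 3.03 and 0.843 FPKM. *Kcna6* was at 14.0 and 5.67 FPKM, while *Kcna5*, at 5.51 and 6.08 FPKM, was about level between the libraries. The class therefore ranged from 7.17-fold lower (*Kcnq3*) to 1.80-fold higher (*Kcns3*) with the KO label.

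Among the auxiliary subunits of Kv channels, *Kcnip1*, which encodes a calcium-binding partner of A-type channels, had the second highest value of any channel gene in spinal cord. It was at 61.8 FPKM there, at 15.0 and 12.4 FPKM in spinal column (WT, KO label) and listed at 0 in ES cells labelled WT. *Kcnip2* was at 4.23 FPKM in day 2 EBs labelled WT and at 5.37 and 1.28 FPKM in spinal column, and *Kcnip3*, which also acts as a transcriptional repressor, peaked in culture at 6.44 FPKM in day 4 EBs labelled WT. *Kcnab2*, a cytoplasmic beta subunit, was at 20.2 and 11.1 FPKM in spinal column. *Kcne3*, a subunit known from epithelia, was the only channel gene above 1 FPKM in either library that was more than 2-fold higher with the KO label in spinal column, at 1.02 and 2.56 FPKM. Its log2 ratio there with 1 FPKM added was 0.82, short of 2-fold, and it was listed at 0 in spinal cord. *Kcne4* was at 0.702 and 2.16 FPKM at day 6 (WT, KO label).

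An inward rectifier differed between the labels early in culture. *Kcnj3*, which encodes a G protein-gated channel (GIRK1), was at 0.589, 2.24, 0.380 and 0.0240 FPKM in the WT-labelled cultures from ES cells to day 6, and at 0.0160, 0.0644, 0.0103 and 0.0341 FPKM in the KO-labelled ones. It was lower with the KO label at the first 3 stages and close to 0 in both libraries at day 6, and day 2 was the only stage above 1 FPKM. The KO-labelled value was too near 0 for a fold, and with 1 FPKM added to both the log2 ratio at day 2 was -1.61. In spinal column it was at 1.81 and 1.36 FPKM (WT, KO label) and in cord at 5.68 FPKM. *Kcnj4*, a strong inward rectifier (Kir2.3), was present in culture and nearly absent from tissue. It was at 1.70 FPKM in ES cells labelled WT, at 6.85 and 11.2 FPKM at day 4 (WT, KO label) and at 5.15 and 6.97 FPKM at day 6, and it was at 0.0311 FPKM in spinal column labelled WT and listed at 0 in the other 2 tissue libraries. *Kcnj11* and *Kcnj8* form the pores of ATP-sensitive channels in excitable cells and in vessels respectively. *Kcnj11* was at 1.29 and 0.550 FPKM at day 6 and at 12.6 and 10.9 FPKM in spinal column. *Kcnj8* was at 5.23 and 10.05 FPKM in spinal column, just inside 2-fold. *Kcnj10*, the glial Kir channel, was at 17.6 FPKM in cord and at 5.24 and 2.25 FPKM in spinal column; of 4 markers of astrocytes and radial glia in the same pair, *Gfap*, *Aqp4* and *Slc1a3* were lower within 2-fold and *Fabp7* was at 136 and 150.2 FPKM, with a median log2 ratio of -0.59.

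Two-pore channels gave the highest channel value in ES cells. *Kcnk1*, which encodes TWIK-1, was at 21.7, 34.2, 10.04 and 4.60 FPKM in the WT-labelled cultures and at 22.3, 36.0, 18.2 and 9.57 FPKM in the KO-labelled ones. It peaked at day 2 under either label and was 2.08-fold higher with the KO label at day 6. *Kcnk5*, the acid-sensitive TASK-2, was between 6.73 and 13.3 FPKM in all 8 cultures and at 0.477 FPKM in spinal cord. *Kcnk6* was at 0.700 and 3.20 FPKM at day 4 and at 1.34 and 3.31 FPKM at day 6 (WT, KO label), and *Kcnk4* at 0.167 and 1.19 FPKM at day 6. All 5 two-pore loci that could be compared at day 6 had a ratio above 0, and 4 passed 2-fold, beside 10.5% of all loci. With 1 FPKM added to both values none of the 4 passed it, and their log2 ratios ran from 0.54 to 0.92. In tissue the leading gene was another one: *Kcnk9*, the neuronal TASK-3, was at 25.5 FPKM in cord and at 8.08 and 2.75 FPKM in spinal column. *Kcnk18*, a channel of sensory ganglia, was at 1.64 and 0.315 FPKM in spinal column and at 0.00867 FPKM in cord.

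Channels gated by calcium or sodium held 2 of the 3 largest differences at day 6. *Kcnmb4*, the neuronal beta subunit of the large-conductance BK channel, was at 0.495, 0.578, 3.04 and 12.9 FPKM in the WT-labelled cultures and at 0.274, 0.829, 2.10 and 2.14 FPKM in the KO-labelled ones, and the ratio at day 6 was 6.02-fold. *Kcnn1*, which encodes the small-conductance channel SK1, was at 0.959, 2.12, 1.98 and 6.55 FPKM with the WT label and at 0.831, 1.30, 2.02 and 1.06 FPKM with the KO label, 6.18-fold apart at day 6. In these 2 genes, as in *Kcnh2*, the WT-labelled library at day 6 held the highest culture value, and the KO-labelled one lay within the range of the earlier stages of both labels. *Kcnn4*, the intermediate-conductance channel of epithelia and blood cells, went the other way, from 0.928 to 3.87 FPKM. *Kcnmb4* had the highest value of any channel gene in cord, 65.5 FPKM, and was at 24.4 and 16.9 FPKM in spinal column. The BK pore gene *Kcnma1* was far lower than its subunit, at 6.77 FPKM in cord and 0.366 FPKM in day 6 EBs labelled WT.

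In spinal column, the size of the difference was set against the level of each gene in spinal cord, a library that does not enter the ratio; the grouping was chosen after the values were seen. Of 39 loci above 5 FPKM in cord, 36 had a ratio under 0 and 19 (48.7%) were more than 2-fold lower with the KO label, where 9.01% of all 8745 loci in that range were. Their median log2 ratio was -0.96, against -0.005 for all loci of that range. Of 27 loci between 1 and 5 FPKM in cord, 10 (37.0%) were past 2-fold on the lower side, beside 8.08% of all loci in that range. The median was -0.83, against 0.05 for all loci of that range. Of 17 loci at or under 1 FPKM in cord, 5 (29.4%) were more than 2-fold lower, beside 6.89% of all loci in that range. In the same range 1 was more than 2-fold higher. The median was -0.22, against 0.56 for all 1669 loci of that range. The 5 included *Scn11a*, *Scn7a* and *Kcnk18*, and the loci near 0 included the muscle genes *Scn4a* and *Cacna1s*.

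**Figure D4:**
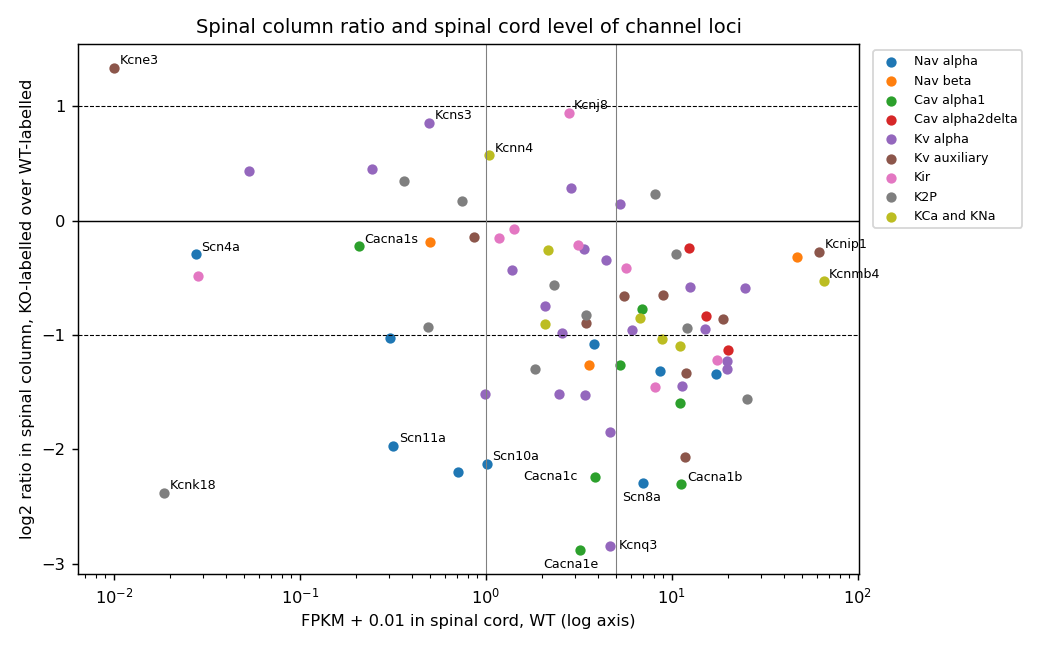
The log2 ratio of FPKM in spinal column, KO label over WT label, is plotted against FPKM in spinal cord (plus 0.01, log axis) for the 79 channel loci shown, coloured by class, with grey lines at 1 and 5 FPKM and dashed lines at 2-fold. Of the 36 points right of 5 FPKM, 34 lie under 0, and the points above 0 left of 1 FPKM number 6.

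Genes that work with these channels were taken from a list of 41, of which 40 were found, with other subunits, hyperpolarization-activated channels, anchoring proteins of the axon initial segment and node, and the repressor REST with its corepressor. In spinal column 20 of 39 were more than 2-fold lower with the KO label and 0 higher, with a median log2 ratio of -1.04, beside 8.51% and 9.08% of all loci. At day 6, 7 of 19 were lower, beside 9.91%, and 2 higher, beside 10.5%. The lower ones at day 6 included *Cntn2*, an axonal adhesion protein, at 33.9 and 0.909 FPKM, and *Nfasc*, which organizes the node, at 3.73 and 0.540 FPKM. *Rest*, whose product silences many channel genes outside neurons, was at 35.8 FPKM in ES cells labelled WT, at 2.63 and 6.54 FPKM in day 6 EBs (WT, KO label) and at 1.21 FPKM in spinal cord. No member of the list differed by more than 2-fold between the labels in ES cells or at day 2; at day 4, 5 of 19 were higher, beside 12.1% of all loci, and 1 lower, beside 4.41%.

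TAF9B and POL2 peaks were assigned to the transcription start sites (TSSs) of protein-coding genes, and a peak counted as at a TSS with its midpoint within 500 bp. The 120 channel loci matched 120 annotated genes, the 2 *Kcnh8* loci counting apart. A POL2 peak was at a TSS of 3 of 32 channel genes above 1 FPKM under either label in day 6 EBs. This was 9.38% (95% Wilson interval 3.24 to 24.2%), beside 54.0% of all such genes. Of all 120 loci, 8 had a POL2 peak at a TSS (6.67%), beside 34.7%. A TAF9B peak was at a TSS of 5 of 32 (15.6%, 6.86 to 31.8%), beside 30.6%, and of 15 of 120 (12.5%, 7.72 to 19.6%), beside 21.0%. Distal TAF9B peaks, with the midpoint over 500 bp and up to 50 kb from the nearest TSS, were assigned to 10 of 32 channel genes (31.2%, 17.95 to 48.6%), beside 18.8%, and to 32 of 120 (26.7%, 19.6 to 35.2%), beside 15.9%. With peaks under the median score left out, these numbers fell by over 1.5 times, to 1 locus with a POL2 peak at a TSS (beside 19.7% of all genes), 8 with a TAF9B peak at a TSS (beside 13.6%) and 14 with a distal one (beside 7.65%). The channel loci spanned a median of 51.0 kb and all loci a median of 18.5 kb, and the part of this in the distal share was not tested. With the WT label at day 6, 25 channel loci were above 1 FPKM and 6 above 5 FPKM. The shares were not matched for level, and the part of level in them was not tested. The intervals cover counting error only.

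In all, 52 TAF9B peaks belonged to 41 channel genes, 15 at a TSS and 37 distal. Of the distal ones 20 had their midpoint in an intron, 13 between genes and 4 in an exon, and 2 overlapped a POL2 peak, as did 10.6% of all distal peaks. The highest scores were those of *Kcnt2* (584, 574 bp upstream), *Kcnn3* (316, at the TSS), *Kcna1* (265, at the TSS), *Kcnn2* (261, 769 bp upstream) and *Scn2a* (233, 1903 bp upstream), against a median of 83.3 over 10415 peaks. *Kcnk9* had a peak of score 180 in an intron, 29.1 kb inside the gene, followed by *Cacna1g* (178, at the TSS), *Kcnh1* (163, 1529 bp upstream), *Kcnab3* (156, at the TSS) and *Scn8a* (152, in an exon 28.6 kb downstream of the nearest TSS). Of these 10 genes only *Kcnn2*, *Cacna1g* and *Kcnab3* were above 1 FPKM in day 6 EBs labelled WT, at 1.10, 1.34 and 1.19 FPKM. *Kcna1* was at 0.0230 FPKM, *Scn2a* at 0.0976 FPKM and *Kcnk9* was listed at 0 in that library. The genes with a TAF9B and a POL2 peak at a TSS were *Cacna1g*, *Kcnab2*, *Kcnj2* and *Kcnn3*.

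**Figure D5:**
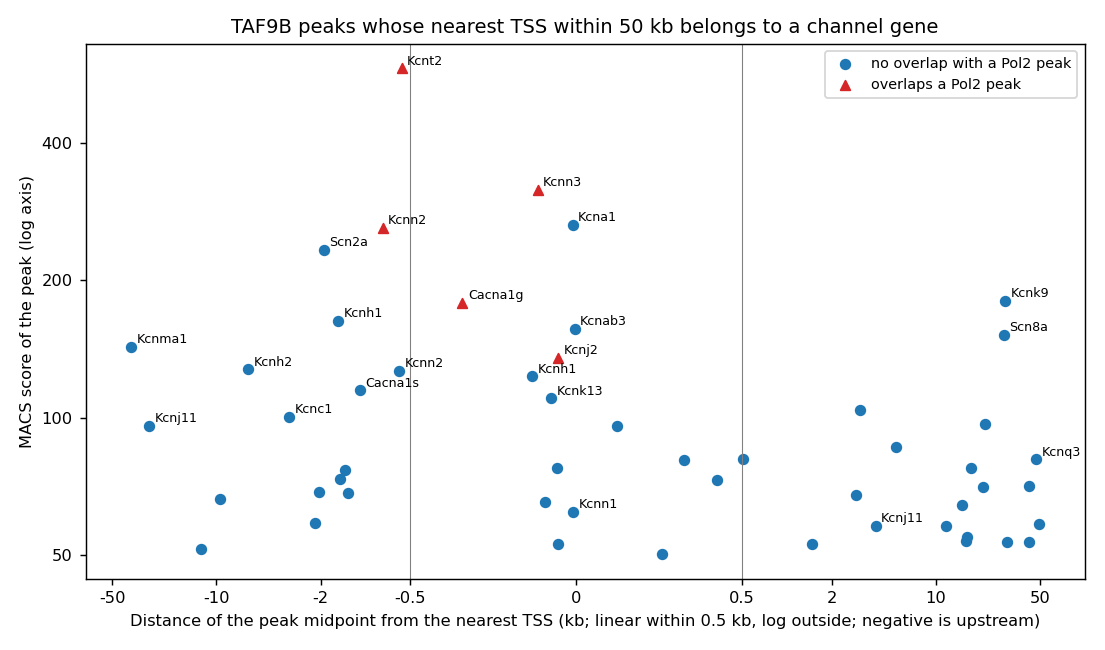
Each point is 1 of the 52 TAF9B peaks assigned to a channel gene, placed by the distance of its midpoint from the nearest TSS (x axis, kb, negative upstream, linear within 0.5 kb and logarithmic outside) and by its MACS score (y axis, log scale); triangles overlap a POL2 peak. The 5 triangles lie within 769 bp of a TSS, and 15 points lie between the grey lines at 0.5 kb.

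Among the 6 channel genes that were more than 2-fold lower with the KO label at day 6, 3 had a TAF9B peak assigned. *Kcnn1* had one at its TSS (score 62.0), *Kcnh2* one 6.10 kb upstream (score 128) and *Kcnj11* had 2 distal ones. Of 14 channel genes above 1 FPKM under either label at day 6 and with a TAF9B peak, 3 were more than 2-fold lower and 1 higher. Their median log2 ratio was -0.45. Of all loci with a peak, 10.4% were lower and 6.45% higher, with a median of -0.05. Of 18 with none, 3 were lower and 9 higher, with a median of 0.85. Of all loci with none, 8.22% were lower and 13.1% higher, with a median of 0.05. Of the higher ones, *Kcnc4*, *Kcnh3*, *Kcns3*, *Kcnk12*, *Kcnk4*, *Kcnn4* and, with a peak, *Kcne4* passed 1 FPKM only with the KO label. The lower ones that passed it only with the WT label included *Kcnj11* and *Cacna1h*. The contrast between genes with and without a peak was not tested. *Kcnmb4* and *Cacna1h*, with no TAF9B peak, were among the lower ones too. These peaks come from another clone than the RNA-seq libraries, and from a later day of differentiation than the day 6 EBs.

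The DNA under 6 of these peaks is printed to show the sequence at channel genes named above: the peaks of *Kcnh2* and *Kcnn1*, which were lower with the KO label at day 6 (the *Kcnn1* peak has a score under the median of all peaks), those of *Kcnn3*, *Kcna1* and *Scn2a*, with scores among the 5 highest at channel genes, and the intronic one of *Kcnk9*. Each is given 5′ to 3′ on the strand of the gene in mm9, without the part that overlaps an annotated exon. Capitals mark TATAAA (the TATA box), TTCAGCACC and GGACAGC (the left and right part of the RE1 element that REST binds), searched on both strands.
Kcnh2, 6101 bp upstream, between genes, chr5:23863389-23863657, minus strand: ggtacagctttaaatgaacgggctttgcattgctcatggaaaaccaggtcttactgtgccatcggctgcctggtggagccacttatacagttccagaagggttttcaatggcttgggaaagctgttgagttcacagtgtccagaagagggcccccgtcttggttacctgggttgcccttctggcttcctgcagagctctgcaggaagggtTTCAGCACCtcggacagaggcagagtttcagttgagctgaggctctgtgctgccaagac
Kcnn1, upstream of the TSS, chr8:73380908-73380990, minus strand: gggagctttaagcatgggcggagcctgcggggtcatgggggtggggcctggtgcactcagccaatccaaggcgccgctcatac
Kcnn3, upstream of the TSS, chr3:89323787-89324085, plus strand: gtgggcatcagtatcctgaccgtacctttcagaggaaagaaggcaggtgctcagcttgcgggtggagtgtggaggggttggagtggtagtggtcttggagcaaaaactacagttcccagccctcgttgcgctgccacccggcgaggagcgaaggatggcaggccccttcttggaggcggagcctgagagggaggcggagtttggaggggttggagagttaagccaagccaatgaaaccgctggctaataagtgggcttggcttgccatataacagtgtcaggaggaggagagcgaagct
Kcna1, upstream of the TSS, chr6:126595820-126595991, minus strand: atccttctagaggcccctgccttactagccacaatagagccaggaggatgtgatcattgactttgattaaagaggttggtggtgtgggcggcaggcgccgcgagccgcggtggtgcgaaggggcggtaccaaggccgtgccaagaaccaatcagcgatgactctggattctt
Scn2a, 1903 bp upstream of the nearest TSS and in an intron of a longer transcript, chr2:65506460-65506739, plus strand: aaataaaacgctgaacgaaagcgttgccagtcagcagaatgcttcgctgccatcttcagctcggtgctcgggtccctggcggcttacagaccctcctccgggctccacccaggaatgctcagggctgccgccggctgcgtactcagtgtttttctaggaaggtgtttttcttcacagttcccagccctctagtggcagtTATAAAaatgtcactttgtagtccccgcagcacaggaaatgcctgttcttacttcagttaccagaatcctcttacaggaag
Kcnk9, intron, chr15:72347535-72347759, minus strand: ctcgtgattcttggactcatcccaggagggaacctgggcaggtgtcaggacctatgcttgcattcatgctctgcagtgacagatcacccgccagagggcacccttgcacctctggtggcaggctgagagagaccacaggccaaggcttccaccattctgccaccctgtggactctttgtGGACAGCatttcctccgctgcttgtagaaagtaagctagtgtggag

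The *Kcnh2* peak held the 9 letters TTCAGCACC. Within the central 300 bases, 3 of 37 distal TAF9B peaks of channel genes held them (those of *Kcnh2*, *Scn10a* and *Cacna1s*), beside 0.517% of all 6188 distal peaks. GGACAGC was in 3 of the 37 (8.11%), beside 8.21% of all distal peaks, and TATAAA in 7 (18.9%), beside 9.79%. None of the 15 TSS peaks held any of the 3, which are in 0.688%, 8.40% and 3.96% of 4214 TSS peaks. A match is a run of letters, and binding was not measured by it.

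Promoter sequences of RefSeq (GRCm38.p6, 250 bases before to 50 after each start) were found for 86 of the 119 genes, with 116 promoters. TATAAA was in 7 of them (6.03%), beside 13.6% of all 32851 promoters, and GGACAGC in 11 (9.48%), beside 6.56%. TTCAGCACC was in 1 (0.862%), beside 0.371%. That promoter belongs to *Kcnh6*, an ERG-family channel gene that reached 1.29 FPKM in spinal column labelled WT and was at most 0.537 FPKM in the cultures, and it carries both parts in the same orientation. It is shown from 200 to 141 bases before the start, with both in capitals.
Kcnh6, GRCm38.p6, chr11:106007948-106008007, plus strand: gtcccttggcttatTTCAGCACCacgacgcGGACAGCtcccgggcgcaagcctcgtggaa
The median ratio of observed to expected CpG was 0.436 in the channel promoters and 0.384 in all promoters, and 30.2% and 35.8% of them were above 0.6.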

How the data were processed

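RNA-seq values are FPKM as deposited: the authors mapped poly-A reads with TopHat against mm9 and RefSeq genes and ran Cuffdiff on pairs of libraries; tool versions and the peak-calling options are not given in the sources used here. The tables also hold the authors' Cuffdiff fold changes and p-values, which were not used. The depth behind each FPKM value is unknown, and values under 0.03 FPKM in both day 6 libraries (469 loci) did not fall on steps of whole reads, at most 3 loci sharing a ratio. Peaks carry the score that the authors deposited from MACS, after mapping with Bowtie. The IgG ChIP library was not used here.

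The 6 tables list 23152 loci; 45 with repeated entries were left out, and 316 of the rest had no symbol. Samples were grouped by their labels. A locus was compared where it was above 1 FPKM in either library, and counted as higher or lower past 2-fold, with no pseudocount and no test, there being 1 library per condition. Loci listed at 0 stand below or above all ratios. Peaks were assigned with protein-coding TSSs of GENCODE vM1, and 19862 loci were matched. Members, lists and alternatives were chosen with earlier results of these data known; the sensory ganglion and epidermis lists were added after the values were seen. Named genes are the 5 largest rises and falls past 2-fold in a comparison, the highest of a class and the 10 highest-scoring TAF9B peaks; others were chosen after their values were seen. Some channel genes enter the counts and are not reported singly here, nor drawn in the plots of single genes. Python 3.11.15, numpy 2.4.6, pandas 2.3.3, scipy 1.17.1 and matplotlib 3.10.9 were used.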

Additional observations from a re-analysis of the deposited data

Results flagged for a closer look

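Channel genes were looked for that differed by more than 2-fold in opposite directions in 2 of the 5 comparisons of the labels. In 3 genes (of 101 loci above 1 FPKM somewhere, beside 1.78% of all such loci) this was so, each higher with the KO label in day 4 EBs and lower with it in spinal column, and the difference was not tested, since each comparison has 1 library on a side. For *Cacna1b* the log2 ratio was 1.54 at day 4 and -2.30 in spinal column, a difference of 3.85. For *Kcnd1*, an A-type potassium channel, it was 1.05 and -1.53, a difference of 2.58. For *Scn2b* it was 1.13 and -1.26, a difference of 2.39. The day 4 log2 ratios with 1 FPKM added to both values were 0.82 (*Cacna1b*), 0.65 (*Kcnd1*) and 0.56 (*Scn2b*), so none of the 3 genes stayed past 2-fold in both comparisons. No group had enough libraries to look for a sample apart from the others.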

How the results depend on the processing

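Of 67 counts of channel genes recomputed under the alternatives, 37 stayed within 1.5 times and 30 did not; no single-gene log2 ratio reversed. Shares in brackets are those of all loci or genes at the same setting. With 1 FPKM added to both values, the higher loci numbered 0 at day 2 (0.595%), 4 at day 4 (7.54%), 2 at day 6 (6.34%) and 0 in spinal column (6.05%), the lower ones 16 in spinal column (3.98%) and 3 in spinal cord against ES cells (32.2%), and day 6 EBs against ES cells gave 6 higher (18%) and 1 lower (11.2%). With every locus above 0 compared, higher and lower loci numbered 4 and 13 of 104 in ES cells (3.24% and 4.16%), 15 and 9 of 107 at day 2 (5.05% and 4.76%), 37 and 14 of 116 at day 4 (18.8% and 7.04%), 20 and 28 of 108 at day 6 (14.8% and 12.1%), and 47 and 16 of 106 for day 6 EBs against ES cells (26.5% and 16.3%), and 3 of 111 were higher in spinal column (11.8%). With more than 1 FPKM demanded in both libraries, 0 of 19 were lower at day 2 (0.561%), 3 of 18 higher at day 4 (7.55%), 3 of 19 higher and 3 lower at day 6 (7.72% and 7.15%), 12 of 16 higher and 1 lower in spinal cord against ES cells (19.4% and 36.6%), and 2 of 14 higher and 2 lower in day 6 EBs against ES cells (17.8% and 12.3%). Peaks with a score above the median were at a TSS of 8 (TAF9B, 13.6%) and 1 (POL2, 19.7%) channel loci and distal to 14 (7.65%). Of 159 single ratios past 2-fold, 108 stayed past it with 1 FPKM added and 158 when centred on the median of all loci. No paired analysis was possible because each comparison has 1 library on a side, and for the same reason none could be left out; a fit over the 4 culture stages taken as pairs, which would give a mean over stages, was not run. The depth behind the FPKM values is unknown, so the error of low values cannot be given.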
